A study of Mus musculus with 8 samples.

Results

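The genes described here encode the subunits of Polycomb repressive complex 2 (PRC2), 10 genes taken by name from the 23284 gene symbols of each table: *Ezh1*, *Ezh2*, *Eed*, *Suz12*, *Jarid2*, *Mtf2*, *Phf19*, *Aebp2*, *Rbbp4* and *Rbbp7*. They were followed in 8 mouse RNA-seq libraries of 2 cell types, 4 libraries for each and 2 for each labelled group, with the strain given as B6CBAF1/J. IdHPCs are bone marrow LSK-derived progenitors that a human *ID3* transgene keeps growing on TSt-4 stromal feeder cells with SCF, Flt3 ligand and IL-7. By genotype label, control IdHPCs were *Pcgf1* fl/fl and *Pcgf1*-KO IdHPCs *Pcgf1* -/-, deleted through ERT2-Cre by treatment with 4-OHT, and for these RNA-seq libraries the sources used here do not say whether the control IdHPCs carried ERT2-Cre or what they received. A supplementary legend on a separate IdHPC experiment gives ethanol for controls of the ERT2-Cre genotype. LMPPs, early progenitors with lymphoid and myeloid potential, were labelled control (*Pcgf1* fl/fl without ERT2-Cre) or *Pcgf1*-KO (ERT2-Cre:*Pcgf1* fl/fl, labelled *Pcgf1* -/-), and the cells of both groups were kept with 4-OHT. For the study's adult animals the reporting summary gives female mice of 6 to 8 weeks of age, without naming the experiment, and the labels name passages 15 to 18 for the culture.

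PRC2 places methyl groups on lysine 27 of histone H3, a mark of repressed chromatin. EZH2 or its paralog EZH1 holds the catalytic site, EED binds the finished mark and stimulates the enzyme, SUZ12 is the scaffold, and RBBP4 or RBBP7 contacts histones. Accessory proteins join this core in alternative forms, one with JARID2 and AEBP2 and another with a Polycomb-like protein (PHF1, MTF2 or PHF19). In many tissues *Ezh2* goes with dividing cells, and *Ezh1* with resting or mature cells. PCGF1, the deleted protein, belongs to a different complex, PRC1.1, so that none of the 10 genes was itself targeted.

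The promoters of *Ezh1*, *Eed* and *Ezh2* are shown because *Ezh1* and *Eed* were the subunit genes called in a comparison below and *Ezh2* is the paralog of *Ezh1*. Each runs from 250 bases before to 50 bases after a start in the RefSeq table for GRCm38.p6, 5′ to 3′ on the strand of the gene, and capitals mark a match to TTTGGCGC or TTTCCCGC, 2 motifs of the kind that E2F proteins bind, searched on both strands.
Ezh1, chr11:101226414-101226713, minus strand: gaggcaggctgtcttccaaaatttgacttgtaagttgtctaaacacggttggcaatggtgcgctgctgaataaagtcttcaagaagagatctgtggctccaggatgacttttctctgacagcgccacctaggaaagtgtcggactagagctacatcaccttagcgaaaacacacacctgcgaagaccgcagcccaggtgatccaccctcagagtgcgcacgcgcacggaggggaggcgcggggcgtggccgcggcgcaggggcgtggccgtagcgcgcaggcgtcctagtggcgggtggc
Eed, chr7:89980927-89981226, minus strand: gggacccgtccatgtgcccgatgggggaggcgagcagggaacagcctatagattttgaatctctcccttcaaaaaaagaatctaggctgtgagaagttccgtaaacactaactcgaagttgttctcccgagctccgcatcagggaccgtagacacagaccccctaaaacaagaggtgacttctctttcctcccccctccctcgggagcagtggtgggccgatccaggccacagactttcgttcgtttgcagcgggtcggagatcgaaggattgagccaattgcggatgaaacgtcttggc
Ezh2, chr6:47594981-47595280, minus strand: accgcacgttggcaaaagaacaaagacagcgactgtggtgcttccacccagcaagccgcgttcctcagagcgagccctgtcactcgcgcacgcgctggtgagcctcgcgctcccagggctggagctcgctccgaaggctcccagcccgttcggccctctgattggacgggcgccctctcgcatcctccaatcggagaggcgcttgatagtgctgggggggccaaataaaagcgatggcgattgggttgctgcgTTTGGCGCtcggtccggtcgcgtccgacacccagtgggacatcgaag
*Ezh2* holds 1 match, just downstream of its start, and the windows of *Ezh1* and *Eed* hold 0. *Suz12* and *Phf19* also hold 1 match each, further upstream. Of all 32851 promoter windows in the table, 514 (1.56%) hold a match. In the build of the files, NCBIM37 (mm9), *Ezh1* lies at chr11:101052429-101087777, *Eed* at chr7:97103166-97129493 and *Ezh2* at chr6:47480273-47545340, all on the minus strand. GC content of the windows was 59.3% for *Ezh1*, 54.7% for *Eed* and 64.3% for *Ezh2*.

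The labels were checked on *Pcgf1*. Its rows 2 to 7, counted from the 5′ end, held 193 and 173 reads in control IdHPCs and 15 in each *Pcgf1*-KO library. Over the whole gene, *Pcgf1* read 8.14 and 7.22 CPM in control and 2.49 and 3.91 in *Pcgf1*-KO IdHPCs, a log2 difference of -1.07 that limma did not call (adjusted p = 0.126). It was called by limma with the replicate number as a block (adjusted p = 0.0252). The LMPP libraries labelled control 1 and *Pcgf1*-KO 1 had 84 and 76 reads on rows 2 to 7, and those labelled control 2 and *Pcgf1*-KO 2 had 0, a count that allows up to 3 reads. Each pair of LMPP libraries with the same labelled replicate number was therefore alike in *Pcgf1*, whatever its genotype label. Each labelled genotype group thus held 1 library with these reads and 1 without, so the comparison by label does not measure loss of *Pcgf1*. Whether the labels of control 2 and *Pcgf1*-KO 1 were exchanged was not tested, and no library was renamed. The paper reports lower *Pcgf1* in *Pcgf1*-KO than in control LMPPs, by RT-qPCR and in browser tracks, the direction that the labels give. Neither of these measures is analysed here. LMPPs are compared below by label and also by labelled replicate number, and in the second comparison the number and the presence of *Pcgf1* reads cannot be told apart. Libraries held 15717645 to 25292626 reads in IdHPCs and 9611759 to 12569296 in LMPPs after repeated rows were dropped. *Pcgf1*-KO IdHPC library 2 stood apart. The median gene of 8574 with good coverage had 54.9% of its reads on its 3 rows nearest the 3′ end there, against 42.1% to 44.3% in the other IdHPC libraries. Summed stromal feeder markers were 6696 to 9006 CPM in *Pcgf1*-KO IdHPCs and 3816 to 4628 CPM in controls. In bulk RNA, fewer cells of a type and less RNA per cell cannot be told apart. Of the 6 progenitor markers, *Kit*, *Flt3*, *Cd34* and *Ptprc* were present in every library. *Ly6a* and *Il7r* were low in LMPPs, at 2.80 to 14.7 and 0.681 to 3.47 CPM. Between control and *Pcgf1*-KO IdHPCs the 6 differed by -0.64 (*Ptprc*) to 0.97 (*Cd34*) log2 units, with *Ly6a* at 0.87. Of these 6, 3 were higher and 3 lower in *Pcgf1*-KO, and limma called 0. Their part in the subunit differences was not tested. The 4 erythroid markers together stayed at 0.295 to 0.686 CPM.

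All 10 subunit genes were expressed in both cell types, and all 10 passed the filter for testing, a CPM (read count scaled to a common library total) of at least 1 in 1 library. Levels of different genes are compared per kb of exon. In IdHPCs, the genes for the histone chaperones led, with a mean of 82.0 ± 6.87 CPM per kb (SD, n = 4) for *Rbbp7* and 75.7 ± 3.18 for *Rbbp4*, whose ranges overlapped. *Ezh2* followed at 44.1 ± 2.11, then *Suz12* at 32.8 ± 7.73 and *Eed* at 23.3 ± 1.83, again with overlap of the last pair. Among the accessory genes, *Mtf2* and *Aebp2* both stood at 14.6 CPM per kb (SD 2.73 and 3.09) and *Jarid2* at 9.36 ± 2.89, each overlapping its neighbor. *Ezh1* at 3.65 ± 1.20 and *Phf19* at 1.46 ± 0.15 were lowest and overlapped neither each other nor the genes above them.

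LMPPs showed the same order by mean. *Rbbp7* had 90.4 ± 9.98 CPM per kb (SD, n = 4), *Rbbp4* 62.9 ± 4.89, *Ezh2* 50.1 ± 3.15, *Suz12* 29.7 ± 1.98 and *Eed* 26.9 ± 4.90. *Mtf2* had 18.7 ± 1.16, *Aebp2* 17.4 ± 2.09, *Jarid2* 11.4 ± 1.5, *Ezh1* 7.72 ± 1.35 and *Phf19* 5.08 ± 0.729. Among neighbors in this order, only *Suz12* with *Eed* and *Mtf2* with *Aebp2* overlapped. The values of both tables stand side by side without a test, since the authors normalized the tables separately. On that basis, *Phf19* read 1.3 to 1.65 CPM per kb in IdHPCs and 4.30 to 5.75 in LMPPs, and *Ezh1* read 2.45 to 5.32 and 6.15 to 9.24, with no overlap for either gene. Summed stromal feeder markers also differed, at 3816 to 9006 CPM in IdHPCs and 68.6 to 105 CPM in LMPPs. The part of feeder RNA in these gaps between the cell types was not tested. Levels per kb depend on how rows that overlap in part are summed. With every listed row kept, control IdHPCs would read 81.1 CPM per kb for *Mtf2*, 78.8 for *Ezh2*, 74.5 for *Suz12*, 33.6 for *Aebp2* and 31.8 for *Jarid2*, while the other 5 genes keep their values. The order of levels then changes, with *Mtf2*, *Aebp2* and *Jarid2* above *Eed* at 22.3.

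**Figure D1:**
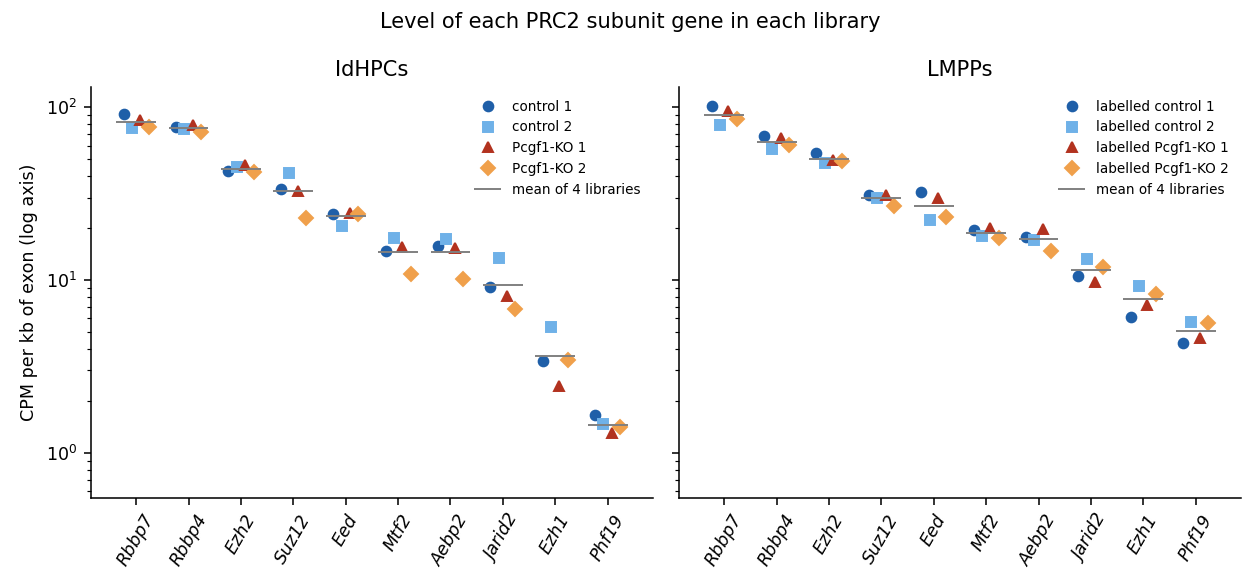
CPM per kb of exon (log axis) of the 10 PRC2 subunit genes in each of the 4 IdHPC and 4 LMPP libraries; grey lines are means of 4 libraries. *Rbbp7* and *Rbbp4* are highest and *Phf19* lowest in both panels, and *Ezh1* and *Phf19* sit higher in the LMPP panel, whose table was normalized separately. Summed feeder markers are lower in the LMPP libraries.

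The ratio of *Ezh2* to *Ezh1*, both per kb, was above 1 in every library. It was 12.6 and 8.46 in control IdHPCs 1 and 2 and 19 and 12.2 in *Pcgf1*-KO IdHPCs 1 and 2. The ratio in *Pcgf1*-KO 2 lay between those of the controls. The 3 rows nearest the 3′ end held 56.1% of *Ezh1* reads in *Pcgf1*-KO 2 and 40.1% to 44.9% in the other IdHPC libraries. For *Ezh2* they held 17.0% and 8.87% to 9.71%. The part of this 3′ shift in the ratio of *Pcgf1*-KO 2 was not tested, since rows carry no lengths. In LMPPs, the ratio was 8.89 in the library labelled control 1, 6.88 in *Pcgf1*-KO 1, 5.13 in control 2 and 5.89 in *Pcgf1*-KO 2. Both libraries labelled replicate 1 were above both labelled replicate 2.

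**Figure D2:**
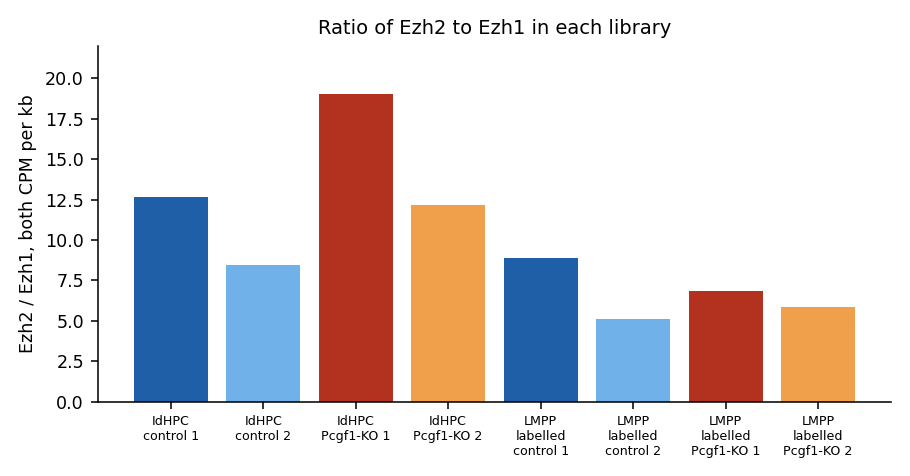
Ratio of *Ezh2* to *Ezh1* (each in CPM per kb of exon) in each of the 8 libraries, as bars from 0. The ratio runs from 8.46 to 19 in IdHPCs and from 5.13 to 8.89 in LMPPs.

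In IdHPCs, the first question was whether loss of *Pcgf1* was accompanied by altered expression of PRC2 genes. No subunit gene passed the test. *Jarid2*, *Ezh1*, *Suz12* and *Aebp2* had the largest differences, all toward lower values in *Pcgf1*-KO, while *Ezh2*, *Rbbp4* and *Rbbp7* were within 0.05 log2 units of the control. Differences are limma estimates on log2(CPM + 1), which understates the change of low genes, and p-values were adjusted over 12272 genes by the Benjamini-Hochberg method. Over all genes, 30 (0.244%) were called higher and 31 (0.253%) lower at an adjusted p under 0.05. Of the 10 subunit genes, 0 were called by limma, by edgeR exactTest (4.96% of all genes called) or by DESeq2 (4.03%), and 1 had an unadjusted p under 0.05, as did 1779 of all 12272 genes. The median difference over the 10 genes was -0.23, against 0.01 over all genes, with 8 of 10 below 0, against 6069 of all 12272 genes. The lower values of *Aebp2* and *Mtf2* rested on *Pcgf1*-KO 2, as given below.

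*Ezh1* read 20.5 and 32.4 CPM in the controls and 14.9 and 21 in *Pcgf1*-KO libraries 1 and 2. Over all rows the groups overlapped, and the controls differed from each other by more than *Pcgf1*-KO 2 did from control 1. On the 3 rows nearest the 3′ end, *Ezh1* read 9.216 and 13.353 CPM in controls and 5.969 and 11.763 in *Pcgf1*-KO, again with overlap. On the remaining rows it read 11.328 and 18.998 CPM in controls and 8.919 and 9.222 in *Pcgf1*-KO, without overlap. Over all rows, the log2 difference of *Ezh1* was -0.52 (95% interval -1.17 to 0.13, limma adjusted p = 0.450). It was -0.75 without *Pcgf1*-KO 2 and -0.29 without *Pcgf1*-KO 1, and it was -0.84 without control 1 and -0.20 without control 2. *Ezh2* read 114 and 120 CPM in controls and 124 and 112 in *Pcgf1*-KO. Its log2 difference was 0.01 (95% interval -0.45 to 0.47, limma adjusted p = 0.984), which leaves room for a change of 0.734-fold to 1.39-fold.

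*Eed* read 49.6 and 42.6 CPM in controls and 50.5 and 50.1 in *Pcgf1*-KO, so that both *Pcgf1*-KO libraries were above both controls. This was the only subunit gene with that order, which 25.6% of all genes showed. The log2 difference of 0.13 (95% interval -0.36 to 0.62) did not pass the test (limma adjusted p = 0.824). With 1 library left out it ran from 0.020 to 0.24. *Suz12*, the gene of the scaffold subunit, read 148 and 182 CPM in controls and 144 and 99.6 in *Pcgf1*-KO. Only *Pcgf1*-KO 2 was far from the controls. The log2 difference was -0.45 (95% interval -0.99 to 0.08, limma adjusted p = 0.429), and -0.19 without *Pcgf1*-KO 2.

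*Rbbp4* read 341 and 330 CPM in controls and 347 and 315 in *Pcgf1*-KO. *Rbbp7* read 213 and 178 CPM in controls and 197 and 181 in *Pcgf1*-KO. The groups overlapped for both genes, with log2 differences of -0.02 (95% interval -0.47 to 0.43, limma adjusted p = 0.972) and -0.04 (95% interval -0.51 to 0.42, limma adjusted p = 0.943).

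Among the accessory genes, *Jarid2* read 57.0 and 83.7 CPM in controls and 50.3 and 42.1 in *Pcgf1*-KO. Both *Pcgf1*-KO libraries were lower, an order shared by *Suz12*, *Phf19* and *Aebp2* (4 of 10 subunit genes, against 21.4% of all genes). The log2 difference of *Jarid2* was -0.58 (95% interval -1.13 to -0.02), with an unadjusted p of 0.0438 and an adjusted p of 0.330 by limma. It stayed negative without *Pcgf1*-KO 2, at -0.45, and without control 2, at -0.30. *Aebp2* read 116 and 127 CPM in controls and 114 and 74.5 in *Pcgf1*-KO, and its log2 difference of -0.39 (95% interval -0.94 to 0.15, limma adjusted p = 0.492) was -0.09 without *Pcgf1*-KO 2.

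*Mtf2*, which encodes a Polycomb-like protein, read 67.5 and 80.1 CPM in controls and 71.3 and 50.2 in *Pcgf1*-KO. Its log2 difference of -0.29 (95% interval -0.83 to 0.25, limma adjusted p = 0.603) was -0.04 without *Pcgf1*-KO 2. *Phf19* read 6.18 and 5.50 CPM in controls and 4.85 and 5.27 in *Pcgf1*-KO, with a log2 difference of -0.17 (95% interval -0.79 to 0.44, limma adjusted p = 0.804) that was -0.40 without the row at the 3′ end (limma adjusted p = 0.713). Over all its rows, the difference of *Phf19* ran from -0.25 to -0.10 with 1 library left out. The lower means of *Aebp2* and *Mtf2* thus rested on *Pcgf1*-KO 2, that of *Suz12* did so in part, being -0.19 without it, whereas that of *Ezh1* was larger without it.

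**Figure D3:**
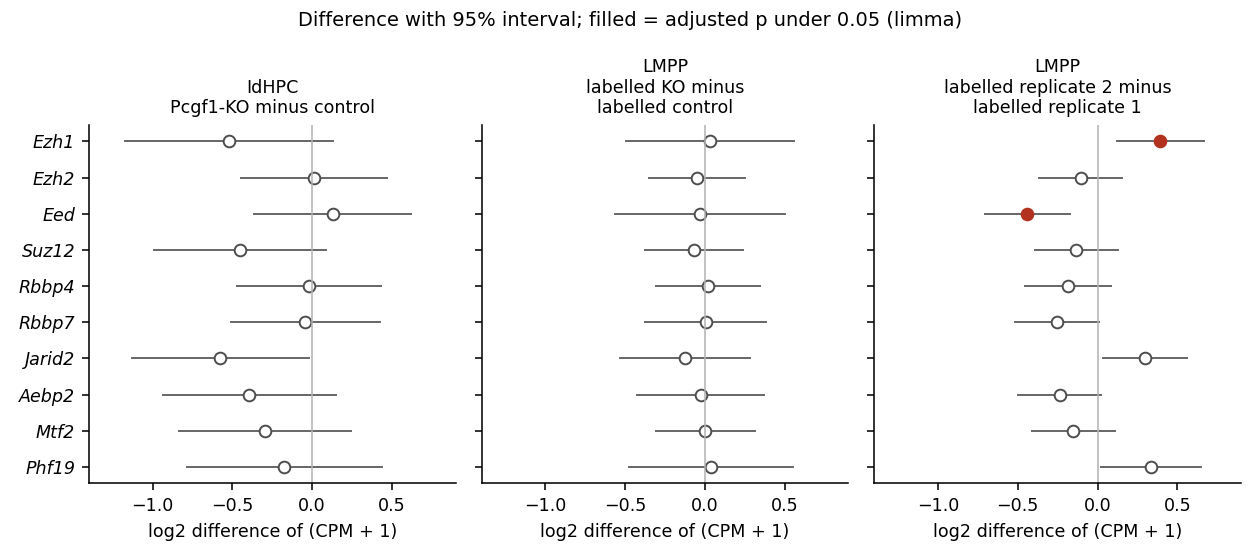
Log2 difference of (CPM + 1) with its 95% interval for each PRC2 subunit gene in 3 comparisons: *Pcgf1*-KO minus control IdHPCs, and LMPPs by genotype label and by labelled replicate number (4 libraries each). Filled points have a limma adjusted p under 0.05, which only *Ezh1* and *Eed* reached, in the comparison of LMPPs by replicate number.

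The rows of each gene showed where along the transcript *Pcgf1*-KO 2 differed. For *Suz12*, the 3 rows nearest the 3′ end summed to 67.4 and 87.4 CPM in controls, 60.6 in *Pcgf1*-KO 1 and 69.0 in *Pcgf1*-KO 2, which lay within the control range. The remaining rows summed to 80.5 and 94.6 CPM in controls, 83.0 in *Pcgf1*-KO 1 and 30.6 in *Pcgf1*-KO 2. The 3′ rows thus held 69.3% of *Suz12* reads in *Pcgf1*-KO 2 (95% Wilson interval 67.3 to 71.2, for counting error only) and 42.2% to 48.0% in the other IdHPC libraries.

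The same held for other subunit genes. The share of reads on the 3 rows at the 3′ end was highest in *Pcgf1*-KO 2 among IdHPC libraries for 10 of 10 genes. It was 46.3% for *Jarid2*, against 22.5% to 23.7% in the other libraries, and 25.1% for *Eed*, against 12.2% to 13.8%. On these 3 rows *Jarid2* read 13.5 and 18.8 CPM in controls and 11.4 and 19.5 in *Pcgf1*-KO, so the groups overlapped there. On the remaining rows it read 43.5 and 64.9 CPM in controls and 38.9 and 22.6 in *Pcgf1*-KO. The 3′ rows of *Eed* read 12.6 CPM in *Pcgf1*-KO 2 and 5.87 to 6.43 in the other libraries, and those of *Rbbp4* read 133 and 96.6 to 98.4 CPM. From the 3 rows at the 3′ end alone, the log2 difference was -0.24 for *Suz12*, -0.09 for *Jarid2* and -0.02 for *Mtf2*. From the remaining rows it was -0.78, -0.82 and -0.54. On the same 3 rows other subunit genes moved up, *Ezh2* to 0.34, *Eed* to 0.47, *Rbbp4* to 0.22 and *Rbbp7* to 0.23, and none of the 10 was called. The median over all genes moved by 0.12 in each direction between these settings. The part of the 3′ shift and of feeder RNA in the IdHPC differences was not tested.

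**Figure D4:**
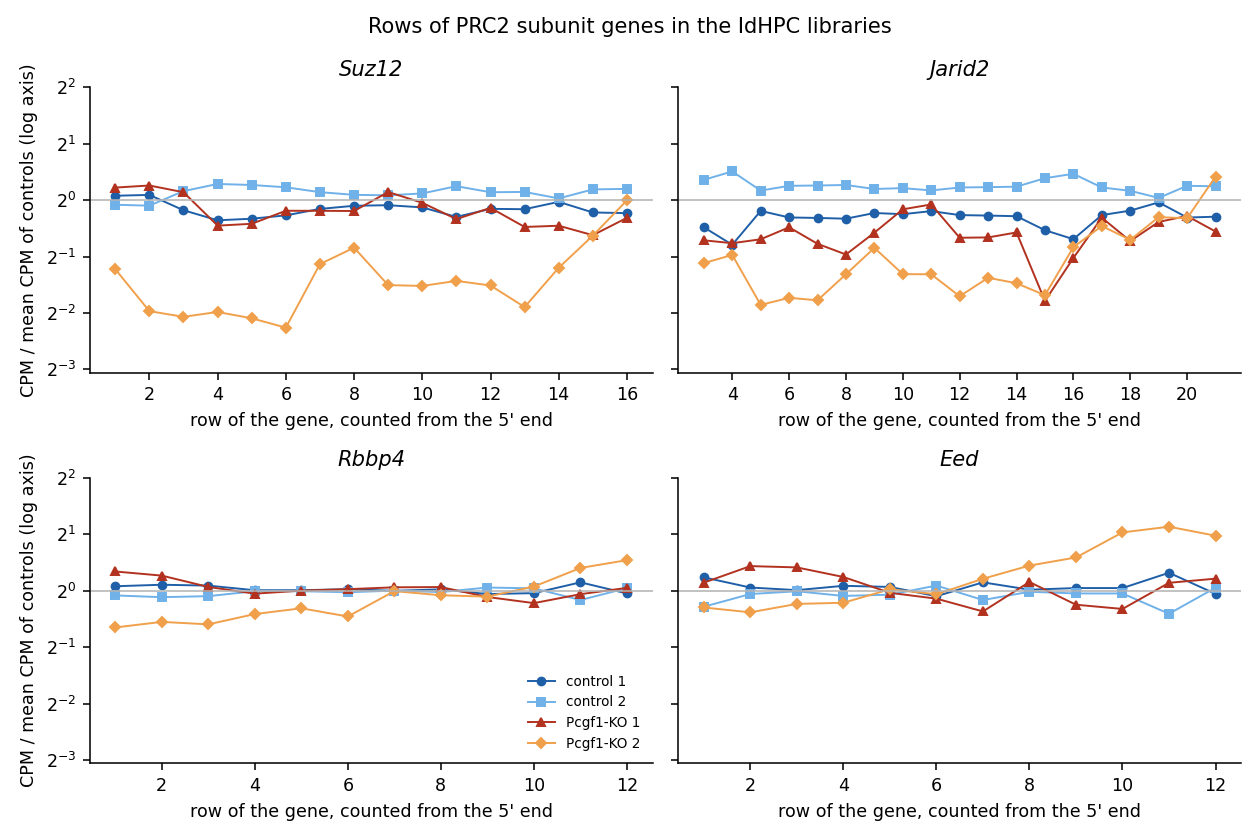
CPM of each row of *Suz12*, *Jarid2*, *Rbbp4* and *Eed* in the 4 IdHPC libraries, divided by the mean of the 2 controls (log axis) and ordered from the 5′ end; rows with under 20 reads in a control are left out. *Pcgf1*-KO 2 runs low at the 5′ side and rises toward the 3′ end, to the control level for *Suz12* and above it for *Rbbp4* and *Eed*.

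In LMPPs grouped by genotype label, no subunit gene passed the test. Log2 differences ran from -0.12 for *Jarid2* to 0.04 for *Phf19*, the groups overlapped for all 10 genes, and every limma adjusted p-value was 0.99997. The widest 95% interval was that of *Eed* (-0.56 to 0.50) and the narrowest that of *Ezh2* (-0.35 to 0.25). Over 12136 genes, 0% were called higher and 0% lower by limma, 0% by edgeR exactTest and 0% by DESeq2, and 1 gene had an unadjusted p under 0.05. Labelled *Pcgf1*-KO libraries were both above the labelled controls for 5.92% of genes and both below for 6.25%.

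By labelled replicate number, *Ezh1* was higher and *Eed* lower in the replicate 2 libraries, those without reads on *Pcgf1* rows 2 to 7. These were 2 of 10 subunit genes called. Of all genes, 9.59% were called higher and 6.04% lower. The fit had the genotype label as a second term and 1 residual degree of freedom, so that limma took the variance of a gene wholly from the trend over genes of like level.

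*Ezh1* read 37.4 and 43.6 CPM in the replicate 1 libraries labelled control and *Pcgf1*-KO and 56.2 and 50.6 in the replicate 2 libraries. The groups did not overlap. The log2 difference was 0.39 (SE 0.14, 95% interval 0.12 to 0.67, limma adjusted p = 0.0322), a 1.31-fold difference. By DESeq2 it was 0.42 but not called (adjusted p = 0.338), and without control 1 or control 2 limma gave 0.29 (adjusted p = 0.196) and 0.32 (adjusted p = 0.152). The call was also lost without the row at the 3′ end, at 0.32 (limma adjusted p = 0.480), without the 3 such rows, at 0.32 (limma adjusted p = 0.547), and on those 3 rows alone, at 0.47 (limma adjusted p = 0.0751). *Ezh2* read 146 and 131 CPM in replicate 1 and 126 and 131 in replicate 2, with a log2 difference of -0.11 (95% interval -0.37 to 0.15, limma adjusted p = 0.721). Whether the differences of *Ezh1* and *Ezh2* differ from each other was not tested.

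*Eed* read 66.7 and 61.7 CPM in replicate 1 and 46.2 and 47.8 in replicate 2. The gap between the groups was wider than the spread within either. The log2 difference was -0.44 (SE 0.14, 95% interval -0.71 to -0.17, limma adjusted p = 0.0110), a 0.737-fold level. It was -0.43 by DESeq2, where it was not called (adjusted p = 0.225), and -0.44 by edgeR exactTest (adjusted p = 0.000277). By limma the call was also lost without the row at the 3′ end, at -0.41 (adjusted p = 0.170), and without the 3 such rows, at -0.39 (adjusted p = 0.279), and it was kept on those 3 rows alone, at -0.59 (adjusted p = 0.0359). *Suz12*, with which EED forms the core, read 135 and 137 CPM in replicate 1 and 130 and 118 in replicate 2, a log2 difference of -0.13 (95% interval -0.39 to 0.13, limma adjusted p = 0.621).

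The remaining 6 subunit genes did not pass the limma test. *Rbbp4* read 299 and 291 CPM in replicate 1 and 253 and 266 in replicate 2, and *Rbbp7* read 239 and 223 against 186 and 201. Their log2 differences were -0.19 (limma adjusted p = 0.467) and -0.25 (limma adjusted p = 0.235). *Jarid2* read 65.9 and 60.8 CPM in replicate 1 and 81.9 and 74.5 in replicate 2, a log2 difference of 0.30 (95% interval 0.04 to 0.56, limma adjusted p = 0.127). *Phf19* read 16.1 and 17.3 CPM against 21.5 and 21.1, a log2 difference of 0.34 (95% interval 0.02 to 0.65, limma adjusted p = 0.157). *Jarid2* and *Phf19* were thus higher in both replicate 2 libraries, with 95% intervals that just excluded 0. *Mtf2* read 89.9 and 91.7 CPM against 82.3 and 81.1, and *Aebp2* read 131 and 146 against 126 and 109. Their log2 differences were -0.15 (limma adjusted p = 0.565) and -0.24 (limma adjusted p = 0.271).

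In this comparison the groups overlapped for 0 of the 10 genes. *Ezh1*, *Jarid2* and *Phf19* were higher in both replicate 2 libraries, an order that 26.7% of all genes showed, and the other 7 genes were lower in both, an order that 29.9% showed. With edgeR exactTest on the recovered reads, without the genotype label, *Ezh1*, *Eed*, *Jarid2* and *Phf19* were called (4 of 10 genes, against 21.3% of all genes). DESeq2 called 0 of 10 (5.82% of all genes). For the median gene of 8042 the share of reads on the 3′ rows was 45.0% and 41.6% in the replicate 1 libraries labelled control and *Pcgf1*-KO and 41.0% and 44.2% in the replicate 2 libraries, so the groups overlapped. That of *Ezh1* also overlapped, at 46.2% and 37.6% against 41.3% and 47.7%. That of *Eed* did not, at 21.3% and 20.8% in replicate 1 against 17.6% and 19.1% in replicate 2, with Wilson intervals that overlapped. The part of this shift in the *Eed* difference was not tested. Marker genes did move with this grouping. By limma, which called 9.59% of all genes higher and 6.04% lower, 3 of 6 mature myeloid genes were called lower in replicate 2 (*Csf1r*, *Itgam* and *Lyz2*), with log2 differences of -1.17, -1.28 and -1.13, and the summed list read 2110 to 2146 CPM in replicate 2 and 2403 to 2405 in replicate 1, mostly from *Mpo*. Of 6 progenitor genes, *Kit* was called higher by the same test and *Ly6a* and *Il7r* lower. Of 5 stromal feeder genes tested, limma called *Pdgfrb* higher, with a log2 difference of 0.56 (adjusted p = 0.000844). The summed feeder list read 87.6 to 105 CPM in replicate 2 and 68.6 to 75.0 in replicate 1. The part of these in the *Ezh1* and *Eed* differences was not tested.

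Other genes tied to PRC2 were read beside the subunits. *E130012A19Rik*, the symbol used here for *Epop*, which encodes a partner of the Polycomb-like form, read 41.5 and 37.0 CPM in LMPP replicate 1 and 62.7 and 67.2 in replicate 2. It was called, with a log2 difference of 0.71 (SE 0.14, limma adjusted p = 4.85e-06). In IdHPCs it read 59.6 and 34.4 CPM in controls and 68.2 and 69.3 in *Pcgf1*-KO, a log2 difference of 0.59 that did not pass (limma adjusted p = 0.360) and was 0.20 without control 2. *Phf1*, *Lcor* and *Lcorl* were tested and not called in any comparison, and *AU022751* (*Ezhip*), which encodes an inhibitor of PRC2, had 0 reads in all 8 libraries, with 3 reads (0.0860 to 0.227 CPM) as the upper limit.

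The demethylases KDM6A and KDM6B remove the mark that PRC2 places. *Kdm6b* read 66.3 and 80.8 CPM in LMPP replicate 1 and 128 and 110 in replicate 2, and was called higher by 0.69 log2 units (SE 0.13, limma adjusted p = 5.39e-06). In IdHPCs, *Kdm6b* read 107 and 122 CPM in controls and 78.6 and 76.7 in *Pcgf1*-KO, a log2 difference of -0.55 with an unadjusted p of 0.0246 and an adjusted p of 0.262 by limma. It was -0.24 on the 3 rows at the 3′ end. *Kdm6a* read 56.2 and 67.5 CPM in control and 47.7 and 29.4 in *Pcgf1*-KO IdHPCs, a log2 difference of -0.70 (limma adjusted p = 0.264) that was -0.36 without *Pcgf1*-KO 2 and -1.04 without *Pcgf1*-KO 1, where it was called (limma adjusted p = 0.0384). On the 3 rows at the 3′ end it was -0.20. In LMPPs by replicate number it was -0.06 (limma adjusted p = 0.870).

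RBBP4 and RBBP7 also serve in complexes other than PRC2. Of 12 genes for their partners in chromatin assembly and histone deacetylase complexes, 0 were called by limma in any of the 3 comparisons. The median log2 difference was -0.05 in IdHPCs and 0.01 in LMPPs by replicate number. The smallest p in IdHPCs was that of *Gatad2b*, which read 28.7 and 34.5 CPM in controls and 25.9 and 6.31 in *Pcgf1*-KO. Its log2 difference of -1.21 (limma adjusted p = 0.282) rested on *Pcgf1*-KO 2, being -0.27 without that library and -2.15 without *Pcgf1*-KO 1. With a replicate block *Gatad2b* was called, as given in the last section. Of 12 cell cycle genes, 0 were called by limma in any comparison. Of all genes, limma called 0.244% higher and 0.253% lower in IdHPCs, 0% by LMPP label, and 9.59% higher and 6.04% lower by replicate number, so that in the first 2 comparisons a count of 0 is near the background. The cell cycle list had a median log2 difference of -0.10 in IdHPCs and -0.10 in LMPPs by replicate number. *Mki67* alone had an unadjusted p under 0.05 in the last comparison, with a log2 difference of 0.31 (limma adjusted p = 0.159). With 1 library left out it ran from 0.13 without the library labelled control 2 (limma adjusted p = 0.565) to 0.49 without the library labelled *Pcgf1*-KO 2, where it was called (limma adjusted p = 0.0181). It was also called by edgeR exactTest (adjusted p = 0.0433).

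The genes most like *Ezh1* and *Ezh2* across libraries were read from log2(CPM + 1) centered within each table, among 7868 genes with a mean of at least 10 CPM in both. For *Ezh1* they were *Pgam1* (Pearson r = 0.98), *Gtpbp2* (0.98) and *Tbl2* (0.97), and for *Ezh2* they were *0610037P05Rik* (0.95), *Cmpk1* (0.95) and *Dem1* (0.95). These values describe 8 libraries in which every gene shares the depth and the 3′ shift of a library.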

How the data were processed

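The members and gene lists were chosen with earlier results of these data known. Per the labels and the methods, the authors sequenced poly(A) RNA, counted reads with Rsubread and deposited CPM made with edgeR. The methods name HISAT2 and mm9, while the submitters' processing notes name TopHat2 (version 2.0.13). Each table has 284716 rows, several for each symbol, in genomic order. Every CPM value was within 0.1 reads of a whole number of reads (100% of values), and 1 read was worth 0.0287 to 0.0757 CPM. Reads can be counted on several rows and carry no molecular identifiers, so the Wilson interval and the limits from 0 reads cover counting error only, whereas intervals from limma rest on the spread between libraries.

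Rows identical to the row before of the same symbol were dropped (26.0% to 27.8% of reads), and the rest were summed per symbol, with the authors' denominator kept. Exon lengths are unions of GENCODE vM1 exons (NCBIM37, mm9). How reads that match paralogs were treated is not given in the sources used here. The 2 tables were fitted apart with limma (version 3.58.1, R 4.3.3) using moderated variances and a mean-variance trend on log2(CPM + 1), over genes with a CPM of at least 1 in at least 1 library. Groups follow the labels, 2 libraries against 2. The methods describe independent experiments, but p-values measure only the spread between these libraries. The comparison by labelled replicate number carries the genotype label as a term, and it was known beforehand that this grouping coincides with the reads on *Pcgf1* rows 2 to 7.

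Recovered reads were also tested with edgeR (version 4.0.16, exactTest) and DESeq2 (version 1.42.0). The tests were tried first on simulated data with 200 changed genes, of which 198 to 200 were recovered with 1 to 14 false calls. That trial is not used here to judge how small a difference could be found. Named genes were the 10 subunits and *Pcgf1*, other PRC2 genes, the demethylases, up to 4 partners of RBBP4 and RBBP7 with the lowest p, and 3 genes most like *Ezh1* and *Ezh2*. *Mki67* and single marker genes were named after their values were seen. Alternatives covered the pseudocount, filter, scaling, rows, tool, replicate block and each library left out. Those on the 3 rows at the 3′ end and the tests by replicate number without the genotype label were chosen after seeing the data. Levels per kb without the 3′ rows were not run, since rows carry no lengths.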

Additional observations from a re-analysis of the deposited data

How the results depend on the processing

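In IdHPCs, 0 of 10 subunit genes were called in any of 15 alternatives, the lowest adjusted p being 0.0718, for *Aebp2* without *Pcgf1*-KO 1. The number of all genes called higher (30) and lower (31) was less stable: 0 and 0 with no filter, 0 and 3 without the row at the 3′ end, 0 and 1 without 3 such rows, 450 and 159 with edgeR exactTest, 341 and 153 with DESeq2, and 0 to 222 and 15 to 565 with 1 library left out. Genes called higher also numbered 18 with the filter in at least 2 libraries, 57 with median-ratio scaling, 19 with all listed rows and 101 on the 3 rows at the 3′ end. The samples share only a replicate number: deviations of same-numbered libraries from their group means correlated at 0.147 in IdHPCs and 0.705 in LMPPs, with 2 pairs each. With a replicate block, 486 genes were called higher and 187 lower in IdHPCs and 3 higher in LMPPs by label, and no subunit gene was called. The difference of *Ezh2* in IdHPCs turned to -0.0072 with median-ratio scaling, -0.0066 with DESeq2, -0.014 without the 3′ row and -0.042 without 3 such rows and moved to 0.34 on the 3 rows at the 3′ end (-0.062 to 0.087 with 1 library left out). On the 3 rows at the 3′ end *Rbbp4* turned to 0.22 and *Rbbp7* to 0.23 (-0.088 to 0.050 and -0.17 to 0.085 with 1 library left out). In LMPPs by label, 0 subunit genes were called under any of 15 alternatives. *Rbbp7* turned to -0.0028 with edgeR exactTest, -0.00062 with DESeq2, -0.0025 without the 3′ row and -0.010 without 3 such rows. *Pcgf1* turned to -0.11 with edgeR exactTest and -0.11 with DESeq2. With all listed rows *Mtf2* turned to -0.0023 and *Aebp2* to 0.016. On the 3 rows at the 3′ end the differences turned to -0.0063 for *Ezh1*, 0.074 for *Ezh2*, 0.0091 for *Eed*, -0.068 for *Mtf2*, -0.0089 for *Phf19* and 0.091 for *Aebp2*. With 1 library left out, the range was -0.25 to 0.32 for *Ezh1*, -0.15 to 0.053 for *Ezh2*, -0.29 to 0.23 for *Eed*, -0.17 to 0.040 for *Suz12*, -0.28 to 0.030 for *Jarid2*, -0.084 to 0.091 for *Mtf2*, -0.16 to 0.24 for *Phf19*, -0.24 to 0.18 for *Aebp2*, -0.10 to 0.14 for *Rbbp4*, -0.18 to 0.18 for *Rbbp7* and -0.96 to 1.11 for *Pcgf1*. By replicate number, the directions of all 10 subunit genes held in the 15 alternatives. The 2 called became 4 with edgeR exactTest, 0 with DESeq2, 0 without the 3′ row, 1 on the 3 rows at the 3′ end, 0 without these and 1 to 2 with 1 library left out, and *Jarid2* passed without the genotype label (adjusted p = 0.0481). Of all genes, 1164 higher and 733 lower became 447 and 259 with DESeq2, 491 and 256 without the 3′ row, 512 and 345 on the 3 rows at the 3′ end, 349 and 182 without these, and 765 to 1225 and 565 to 750 with 1 library left out. With 1 library left out, the range by replicate number was -0.18 to -0.033 for *Ezh2*, -0.21 to -0.061 for *Suz12*, -0.34 to -0.13 for *Aebp2* and -0.21 to 0.093 for *Kdm6a*. With a replicate block, *Gatad2b* in IdHPCs was called (adjusted p = 0.0238), as was *Pcgf1* (adjusted p = 0.0252). The cause of these changes was not tested. With 1 library left out, the lone sample is assumed to vary like the others. With 2 libraries a group, depth and replicate number bound what could be detected, and the narrowest 95% interval of a subunit gene in IdHPCs, that of *Rbbp4*, ran from -0.47 to 0.43 log2 units.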
